A study of Mus musculus with 12 samples.

Results

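Maturation of normal hematopoietic progenitors was read from 6 of the 12 arrays of the series, the 3 wild-type (WT) GMP samples set against the 3 WT ST-HSC samples, which were chosen by their sample titles. ST-HSC, short-term hematopoietic stem cells, were sorted from newborn liver as lin- Sca-1+ c-kit+ CD150- cells, and GMP, granulocyte-macrophage progenitors, as lin- Sca-1- c-kit+ cells with high Fc gamma receptor II/III that carried CD34. The sample records give the ST-HSC gate as CD48+ and the study's methods give it as CD48-, and the paper calls the tissue fetal liver. Both populations came from C57Bl/6 WT littermates per the sample records, while the study's reporting form lists a mixed strain background. The other 6 arrays hold ST-HSC and GMP-like cells of homozygous PU.1 Q202L knock-in (KI) mice, 3 arrays each. They enter here through the shared estimate of the spread, the choice of a probe set per gene and the quantile normalization of the 12 arrays. They also enter through 1 closing comparison. Shared litters and the number of animals behind a sample are not recorded, and the p-values therefore describe array-to-array spread that may in part be technical.

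ST-HSC keep the capacity to give rise to every blood lineage for a limited time, and they carry low levels of transcripts of several lineages at once. On the way to GMP, lymphoid and megakaryocyte-erythroid options are closed while C/EBP alpha, PU.1, Myb and Gfi1 direct transcription of the proteins that fill the first granules of neutrophils. GMP in turn give rise to neutrophils, monocytes and, in part, eosinophils and basophils.

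Each value is a log2 RMA value, a summary of the brightness of the short probes that make up a probe set on an Affymetrix MG430 v2 array. Values are listed in the order of replicates 1, 2 and 3, differences are WT GMP minus WT ST-HSC on the log2 scale ± SE with n = 3 arrays per group, and p-values come from limma, adjusted by the Benjamini-Hochberg method across all 45037 probe sets. A gene was represented by its brightest probe set, and 18193 genes were measured. No detection calls were used here, so a value near the low end of an array does not say whether a transcript was present, and the 25th percentile was 3.37 ± 0.0448 (SD) in GMP and 3.58 ± 0.0300 in ST-HSC. In sorted bulk samples, fewer cells of a type and less RNA per cell cannot be told apart.

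The populations did not share a scale. Array medians lay between 5.00 and 5.05 in ST-HSC and between 4.70 and 4.74 in GMP, and the median difference of all genes was -0.15 as deposited, 0.16 after each array's median was subtracted and 0.05 after quantile normalization of the 12 arrays. The direction of the typical gene therefore turned with the scaling, and the changes reported below are counted both as deposited and in all 3 scalings. As deposited, 494 genes (2.72%) were higher and 1962 (10.8%) were lower in GMP at an adjusted p under 0.05. In all 3 scalings, 494 genes (2.72%) were higher and 811 (4.46%) were lower. Both other scalings raised the typical difference and kept every rise. The 3 scalings were therefore a check on falls and no added check on rises. Counts in the lists below are to be read beside these shares of all genes, also where the shares are not repeated. Of the 811 lower genes, 128 had all 3 GMP arrays under the lowest 25th percentile of the GMP arrays, so the sizes of their falls are uncertain. Past a log2 difference of 2 in all 3 scalings, 54 genes (0.297%) were higher and 290 (1.59%) were lower. The hybridization spike-in controls averaged 12.50 to 12.58 in ST-HSC and 12.32 to 12.48 in GMP, and the difference between the 3' and 5' probe sets of Gapdh was 1.57 to 1.73 in ST-HSC and 1.35 to 1.54 in GMP, so both moved with the population and their part in the gene values was not tested. Xist was high in replicates 1 and 3 and low in replicate 2 of both populations, with values of 11.74, 3.70 and 11.25 in ST-HSC and 10.67, 3.46 and 11.01 in GMP.

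**Figure D1:**
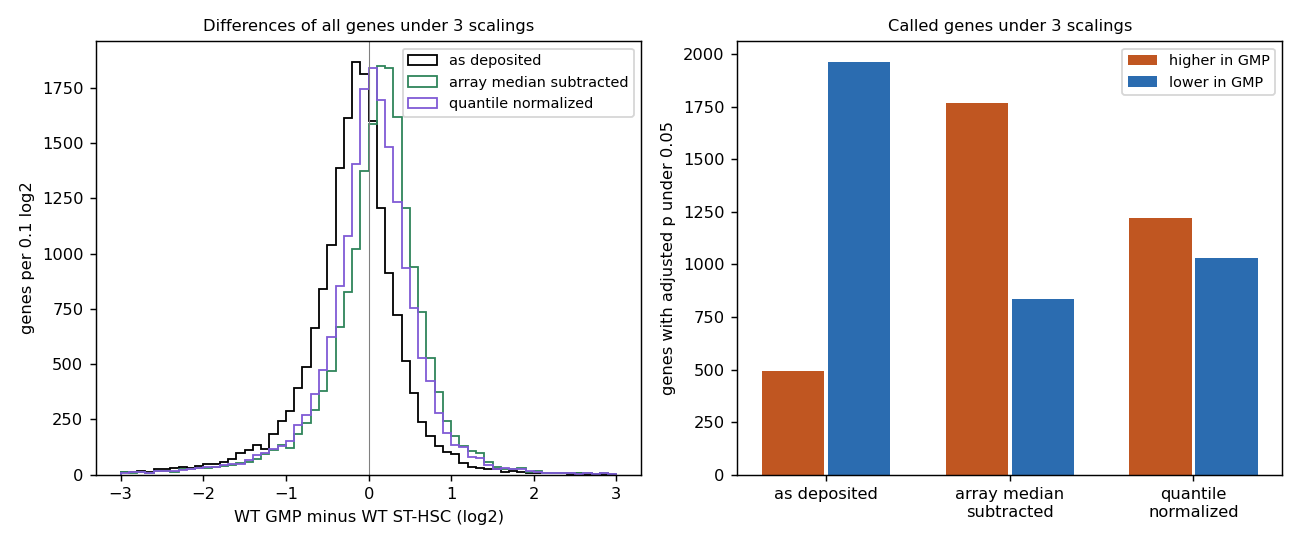
Left, the number of genes per 0.1 log2 of WT GMP minus WT ST-HSC difference under 3 scalings. Right, bars of the number of genes with an adjusted p under 0.05 in each direction. As deposited 494 genes were higher and 1962 lower, after subtraction of each array's median 1767 were higher and 836 lower, and after quantile normalization 1220 were higher and 1030 lower.

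The labels were first set against genes that define the populations. Fcgr3 and Fcgr2b, the genes of the Fc gamma receptors used in the GMP gate, read 9.56, 9.66 and 9.09 in ST-HSC and 11.10, 11.41 and 11.03 in GMP for Fcgr3 and 9.02, 7.37 and 7.47 in ST-HSC and 10.75, 9.65 and 10.34 in GMP for Fcgr2b. Both were higher in every GMP array than in any ST-HSC array, by 1.74 ± 0.20 (adjusted p = 7.10e-04) and 2.29 ± 0.60 (adjusted p = 0.0315), and since they chose the cells they are a check and not a finding. Fcgr2b did not pass without ST-HSC replicate 2 or 3 or without GMP replicate 1 or 3 (adjusted p = 0.0819 to 0.0977), with only the 6 WT arrays fitted (0.0569) or without replicate 2 of both populations (0.101). Slamf1, which encodes the CD150 that the ST-HSC gate excludes, read 4.90, 4.86 and 4.05 in ST-HSC and 2.59, 2.71 and 2.58 in GMP, and the ST-HSC arrays were the higher ones by a difference of -1.98 ± 0.22 (adjusted p = 5.97e-04). Cd34 fell from 11.03, 10.98 and 11.06 in ST-HSC to 9.66, 9.53 and 9.80 in GMP, a difference of -1.37 ± 0.15 (adjusted p = 6.05e-04), and the GMP gate required the CD34 protein. Kit, the receptor both gates share, read 8.36, 9.19 and 9.10 in ST-HSC and 8.18, 8.09 and 8.31 in GMP, a difference of -0.69 ± 0.27 (adjusted p = 0.122) that did not pass. Cd48 read 11.58, 11.66 and 11.82 in ST-HSC and 10.98, 11.12 and 10.87 in GMP and differed by -0.69 ± 0.14 (adjusted p = 0.0116) as deposited, a call lost after subtraction of the array median or 75th percentile (adjusted p = 0.0894 and 0.148) and with the replicate number as a block (0.0532). The defining stem cell genes Mecom, Procr, Hlf and Hoxa9 were higher in ST-HSC and the defining GMP genes Mpo, Elane, Prtn3, Ctsg, Ms4a3 and Cebpa in GMP, each without overlap of the arrays. Of the other defining genes with a named probe set, Meis1 and Hoxb5 for ST-HSC differed by -1.68 ± 0.61 (adjusted p = 0.101) and -0.53 ± 0.18 (adjusted p = 0.0861), and Csf1r and Csf3r for GMP by -0.28 ± 0.83 (adjusted p = 0.862) and 0.35 ± 0.29 (adjusted p = 0.460).

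Genes of the primary granule, the first storage granule that myeloid progenitors fill, rose together. Of 11 measured genes, 8 were higher and 0 lower in all 3 scalings, where 2.72% of all genes were higher, and the median difference of the 11 was 0.55 beside -0.15 over all genes. Elane, neutrophil elastase, read 10.88, 10.54 and 9.55 in ST-HSC and 12.26, 12.26 and 12.34 in GMP. Every GMP array lay above every ST-HSC array and the GMP arrays were far closer to each other, and the difference was 1.96 ± 0.42 (adjusted p = 0.0140), or 3.90-fold. Prtn3, the related serine protease proteinase 3, read 10.82, 10.29 and 9.59 in ST-HSC and 12.15, 11.95 and 11.95 in GMP, again without overlap, and differed by 1.78 ± 0.31 (adjusted p = 0.00546). Ctsg, cathepsin G, a further protease of the same granule, read 12.37, 11.78 and 11.26 in ST-HSC and 13.19, 13.16 and 13.25 in GMP and differed by 1.40 ± 0.24 (adjusted p = 0.00544). In each of these protease genes ST-HSC replicate 1 was the highest and replicate 3 the lowest ST-HSC array.

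Mpo, myeloperoxidase, the peroxidase that makes hypochlorous acid, was already near the top of the scale in ST-HSC. It read 13.27, 13.10 and 12.83 in ST-HSC and 13.51, 13.48 and 13.57 in GMP, so that the arrays did not overlap but differed by 0.45 ± 0.13 (adjusted p = 0.0412), 1.37-fold. Cst7, an inhibitor of lysosomal cysteine proteases that process the granule serine proteases, read 10.10, 8.53 and 8.84 in ST-HSC and 10.80, 10.54 and 10.68 in GMP and differed by 1.52 ± 0.33 (adjusted p = 0.0151). Ms4a3, a membrane protein of granulocyte-monocyte progenitors, read 10.53, 9.24 and 9.03 in ST-HSC and 11.47, 11.46 and 11.30 in GMP and differed by 1.80 ± 0.44 (adjusted p = 0.0243). In Cst7 and Ms4a3 replicate 1 was the highest ST-HSC array and none reached the GMP arrays. Srgn, the proteoglycan core on which granule proteases are packed, and Serpinb1a, an inhibitor of elastase-like proteases, rose by 0.55 (adjusted p = 0.0137) and 0.48 (adjusted p = 0.0286). The lysozyme genes did not pass. Lyz1 read 10.89, 10.98 and 11.09 in ST-HSC and 10.49, 10.49 and 10.74 in GMP and differed by -0.42 ± 0.18 (adjusted p = 0.150), and Lyz2 read 11.34, 11.42 and 11.25 in ST-HSC and 11.27, 10.79 and 11.24 in GMP and differed by -0.24 ± 0.29 (adjusted p = 0.631). Ctsc, the protease that activates the granule serine proteases, differed by 0.10 ± 0.16 (adjusted p = 0.742).

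Each call was set against 16 limma refits with other scalings, filters, priors, samples or a replicate block, where a refit counted only if it held the probe set of the gene. SAM, a permutation procedure that the study's methods used, was run on the 6 WT arrays and called 0 genes higher and 53 lower in all. The calls for the proteases Prtn3 and Ctsg passed in every limma refit, and that for Elane failed without replicate 2 of both populations (adjusted p = 0.0623). Mpo did not pass without ST-HSC replicate 2 or 3 or without any 1 of the GMP arrays (adjusted p = 0.0757 to 0.123), and Ms4a3 and Serpinb1a failed without the same arrays (0.0571 to 0.0783 and 0.0633 to 0.0852). Cst7 failed without ST-HSC replicate 3 (adjusted p = 0.0515). With only the 6 WT arrays fitted, Mpo, Ms4a3, Serpinb1a, Cst7 and Srgn had adjusted p from 0.0547 to 0.143, and with the replicate number as a block Mpo, Serpinb1a and Srgn had adjusted p from 0.0662 to 0.112. Without replicate 2 of both populations Mpo, Ms4a3, Serpinb1a, Cst7 and Srgn had adjusted p from 0.0723 to 0.152, and Mpo also failed among probe sets that reached 6 in at least 3 WT arrays (0.0673).

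The upstream sequences of these granule genes are shown because the proteases rose together and because letters that PU.1, C/EBP, Myb and Runx factors can bind may be read in them. They are the 250 bases before the start of transcription from RefSeq on GRCm38.p6, printed 5′ to 3′ on the strand of the gene. Capitals mark GAGGAA (PU.1), TTGCNNAA (C/EBP), AACGG (Myb) or TGTGGT (Runx), searched on both strands, and no matches overlapped in these windows. The windows lie at chr10:79886062-79886311 (plus strand) for Elane, chr10:79879417-79879666 (plus strand) for Prtn3, chr14:56102575-56102824 (minus strand) for Ctsg, chr11:87793534-87793783 (plus strand) for Mpo and chr11:90390918-90391167 (minus strand) for the stem cell gene Hlf, which fell.
Elane: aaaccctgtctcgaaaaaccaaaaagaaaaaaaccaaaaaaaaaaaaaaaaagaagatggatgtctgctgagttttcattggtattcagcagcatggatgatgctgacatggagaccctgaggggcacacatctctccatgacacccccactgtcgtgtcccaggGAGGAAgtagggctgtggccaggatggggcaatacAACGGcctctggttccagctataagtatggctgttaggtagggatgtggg
Prtn3: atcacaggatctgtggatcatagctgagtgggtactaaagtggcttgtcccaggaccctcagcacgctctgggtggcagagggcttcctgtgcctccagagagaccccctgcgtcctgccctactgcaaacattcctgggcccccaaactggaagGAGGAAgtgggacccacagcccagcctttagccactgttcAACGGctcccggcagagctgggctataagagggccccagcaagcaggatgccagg
Ctsg: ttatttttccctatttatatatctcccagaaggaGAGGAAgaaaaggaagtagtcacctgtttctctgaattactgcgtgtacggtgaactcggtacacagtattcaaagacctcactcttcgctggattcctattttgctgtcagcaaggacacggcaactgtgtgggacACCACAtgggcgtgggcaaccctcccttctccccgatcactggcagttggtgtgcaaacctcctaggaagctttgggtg
Mpo: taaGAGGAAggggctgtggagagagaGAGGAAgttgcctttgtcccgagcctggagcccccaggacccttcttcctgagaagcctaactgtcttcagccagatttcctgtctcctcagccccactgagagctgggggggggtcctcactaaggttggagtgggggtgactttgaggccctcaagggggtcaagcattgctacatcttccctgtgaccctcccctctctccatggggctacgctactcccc
Hlf: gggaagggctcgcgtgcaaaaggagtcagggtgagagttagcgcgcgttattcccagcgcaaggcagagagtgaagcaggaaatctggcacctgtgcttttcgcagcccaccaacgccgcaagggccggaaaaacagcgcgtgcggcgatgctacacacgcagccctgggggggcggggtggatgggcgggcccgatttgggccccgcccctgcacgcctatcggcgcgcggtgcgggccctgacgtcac

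Elane and Prtn3 shared an arrangement, GAGGAA beginning 85 and 95 bases before the start and AACGG beginning 50 and 55 bases before it. These genes encode related proteases and lie close together on the same strand of the same chromosome, so their windows are not independent cases. Mpo held GAGGAA at both 247 and 224 bases before the start, Ctsg held GAGGAA 216 bases and the reverse complement of TGTGGT 79 bases before it, and none of the letters searched stood in the window of Hlf. GAGGAA was in the windows from 250 bases before to 50 after the start of 6 of 10 primary granule genes, 60.0%, beside 27.0% of 14452 measured genes with a window. TTGCNNAA was in 3 of the 10 (30.0% beside 9.04%), AACGG in 2 (beside 21.2%) and TGTGGT in 3 (30.0% beside 13.7%). Of 383 genes that were higher in all 3 scalings 25.8% held GAGGAA and 13.3% TTGCNNAA, and of 629 that were lower 32.6% and 10.8% did. Letters in a window are a description and do not show that a factor binds there.

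Of 17 measured genes of the later neutrophil granules and of neutrophils more broadly, 6 were higher and 1 lower in all 3 scalings and 10 were not called. The median difference was 1.10. Hp, haptoglobin, stored in neutrophil granules, read 9.05, 8.36 and 7.28 in ST-HSC and 10.74, 10.44 and 10.19 in GMP and differed by 2.23 ± 0.36 (adjusted p = 0.00386), 4.69-fold, with no overlap. Lcn2, the iron-scavenging lipocalin of the secondary granule, read 5.03, 4.42 and 4.42 in ST-HSC and 6.65, 8.27 and 7.03 in GMP and differed by 2.69 ± 0.52 (adjusted p = 0.00859). Ltf, lactoferrin, moved less, from 4.18, 5.03 and 4.58 to 5.44, 5.52 and 6.11, a difference of 1.10 ± 0.24 (adjusted p = 0.0140). Chil3 and Olfm4, further granule proteins, rose by 2.46 and 1.59 (adjusted p = 0.0245 and 0.0162), and Cxcr2, a chemokine receptor of neutrophils, rose by 0.69 (adjusted p = 0.0265). Padi4, which converts arginine of histones to citrulline in mature neutrophils, fell, from 5.08, 7.40 and 7.07 in ST-HSC to 4.43, 3.67 and 3.77 in GMP, a difference of -2.56 ± 0.54 (adjusted p = 0.0126). S100a8 and S100a9, the abundant calcium-binding pair of neutrophils, which are named after their values were seen, read 10.21, 10.65 and 8.25 in ST-HSC and 10.91, 11.76 and 11.05 in GMP for S100a8 and 10.53, 10.96 and 8.53 in ST-HSC and 11.05, 11.19 and 10.86 in GMP for S100a9. ST-HSC replicate 3 was the low array in both, and neither passed, with differences of 1.53 ± 0.77 (adjusted p = 0.217) and 1.03 ± 0.73 (adjusted p = 0.387).

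Of the later neutrophil genes, Hp passed in every limma refit. Chil3 failed without ST-HSC replicate 1 or 3 or GMP replicate 1 or 2 (adjusted p = 0.0662 to 0.0779), Cxcr2 without ST-HSC replicate 1 or 3 or any 1 GMP array (0.0543 to 0.0792), Olfm4 without ST-HSC replicate 3 (0.0549), and with only the 6 WT arrays Chil3, Ltf, Olfm4 and Padi4 failed (0.0609 to 0.117). Cxcr2 also failed with the replicate block (0.0641) and with a trended robust fit (0.0621), and Lcn2, Cxcr2, Olfm4 and Padi4 failed without replicate 2 of both populations (0.0632 to 0.115).

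Among the granule genes described here, the eosinophil genes Prg2, Prg3 and Epx rose most. Of 14 measured genes of mast cells, basophils and eosinophils, 7 were higher and 1 lower in all 3 scalings, the median difference was 1.11, and the summed linear value of the list rose from 873 to 2639 units per array in ST-HSC to 5564 to 10995 in GMP. Prg2, the major basic protein of the eosinophil granule, read 6.36, 8.70 and 5.47 in ST-HSC and 10.39, 11.38 and 10.69 in GMP. The lowest GMP array stood above the highest ST-HSC array, which was replicate 2, and the difference was 3.98 ± 0.63 (adjusted p = 0.00345), 15.8-fold. Prg3, a related granule protein outside the list, read 5.92, 7.40 and 5.62 in ST-HSC and 9.75, 11.15 and 10.22 in GMP and differed by 4.06 ± 0.51 (adjusted p = 0.00112). Epx, eosinophil peroxidase, read 4.43, 4.28 and 4.60 in ST-HSC and 6.08, 8.86 and 7.48 in GMP and differed by 3.04 ± 0.60 (adjusted p = 0.00979), with GMP replicate 2 highest in all of these granule genes. Il5ra, the receptor chain for the eosinophil growth factor interleukin 5, read 3.70, 4.44 and 3.47 in ST-HSC and 5.81, 6.53 and 6.94 in GMP and differed by 2.56 ± 0.30 (adjusted p = 7.71e-04).

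Basophil and mast cell genes moved alongside. Mcpt8, a serine protease of basophils, read 6.59, 6.59 and 6.26 in ST-HSC and 8.27, 8.94 and 9.09 in GMP and differed by 2.29 ± 0.35 (adjusted p = 0.00280). Cpa3, the carboxypeptidase of mast cell and basophil granules, read 8.19, 8.78 and 7.61 in ST-HSC and 9.66, 9.86 and 10.31 in GMP and differed by 1.75 ± 0.27 (adjusted p = 0.00288), and Hdc, which makes histamine, read 8.68, 9.55 and 7.63 in ST-HSC and 10.67, 11.86 and 11.48 in GMP and differed by 2.72 ± 0.43 (adjusted p = 0.00336). Ms4a2, the beta chain of the high-affinity IgE receptor, read 7.72, 8.51 and 6.32 in ST-HSC and 10.20, 11.24 and 9.55 in GMP and differed by 2.81 ± 0.83 (adjusted p = 0.0490). Ccr3, the eotaxin receptor of mature eosinophils, was low throughout and fell from 3.38, 3.48 and 3.24 to 2.33, 2.42 and 2.68, a difference of -0.89 ± 0.16 (adjusted p = 0.00626). Prg2, Prg3, Il5ra, Mcpt8, Cpa3 and Hdc passed in every limma refit. Ms4a2 failed without ST-HSC replicate 1 or 3 or any 1 GMP array (adjusted p = 0.0648 to 0.147) and with the 6 WT arrays alone (0.0637), Epx failed with the 6 arrays (0.0536), and Epx, Ccr3 and Ms4a2 failed without replicate 2 of both populations (0.0508 to 0.118). Ms4a2 also failed after subtraction of the spike-in controls and among probe sets that reached 6 in at least 3 WT arrays (0.0508 and 0.0554), and Ccr3 after subtraction of the 75th percentile (0.0532).

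**Figure D2:**
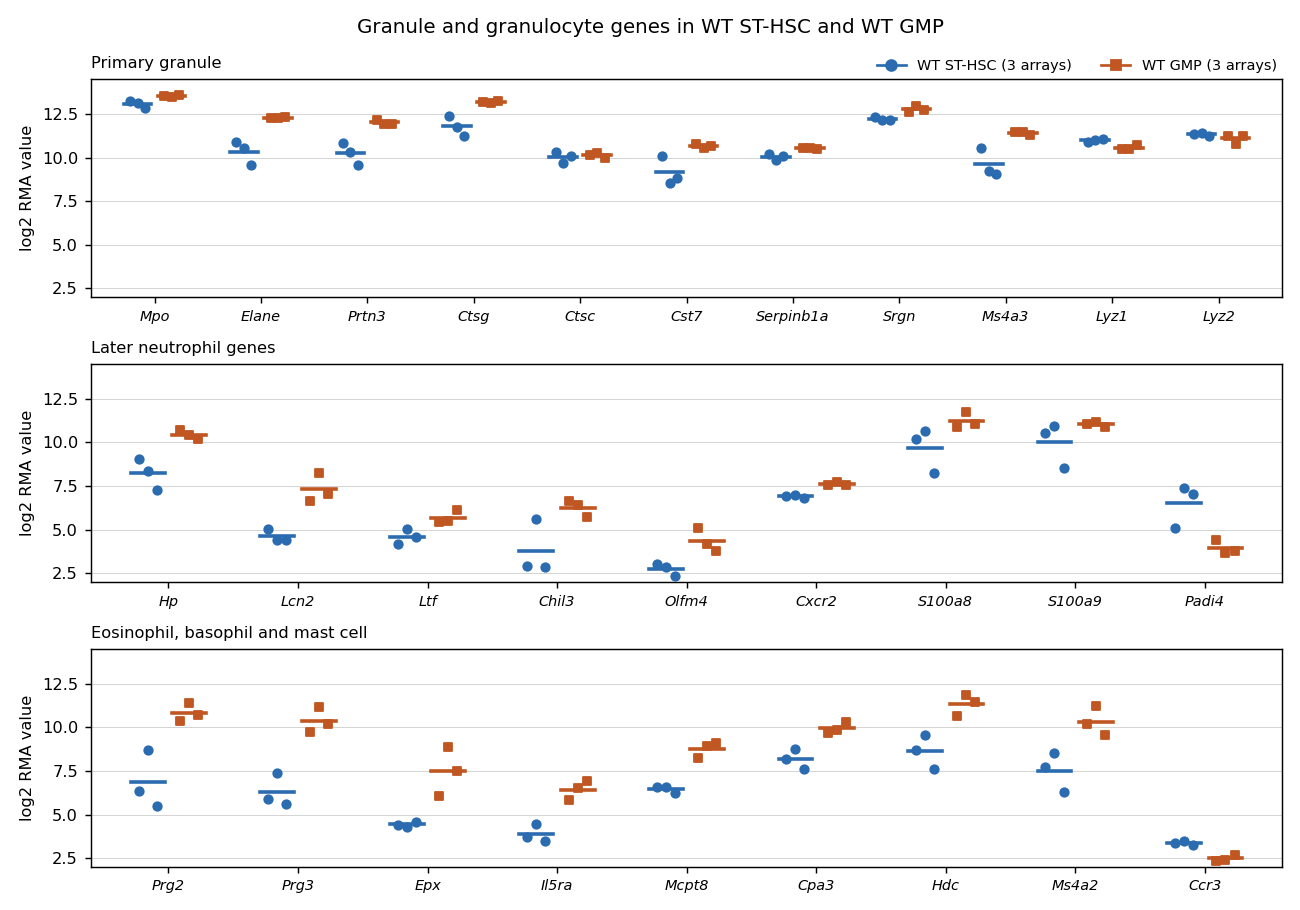
Log2 RMA values of granule and granulocyte genes, 1 point per array in replicate order from left to right (circles WT ST-HSC, squares WT GMP, 3 arrays each) with bars at group means. Elane, Prtn3, Ctsg, Prg2, Prg3 and Epx separate the populations, Mpo is high in both, and Lyz1, Lyz2 and Ccr3 are not higher in GMP.

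Among transcription factors that steer these lineages, more fell than rose. Of 43 measured, 3 were higher and 11 lower in all 3 scalings (14 lower as deposited), and the median difference was -0.31 as deposited, -0.0036 after the array median was subtracted and -0.0852 after quantile normalization. Over all genes, 2.72% were higher and 4.46% lower in all 3 scalings, and 10.8% were lower as deposited. Cebpa, the factor that commits progenitors to the granulocyte and monocyte lineages, read 9.68, 8.99 and 8.46 in ST-HSC and 10.57, 10.26 and 10.45 in GMP, without overlap, and differed by 1.39 ± 0.25 (adjusted p = 0.00577), 2.62-fold. Gfi1, a repressor needed for neutrophil differentiation, read 9.58, 9.05 and 8.74 in ST-HSC and 10.15, 10.56 and 10.14 in GMP and differed by 1.16 ± 0.32 (adjusted p = 0.0356). Myb, which drives granule genes in immature cells, was high in both and read 11.71, 11.69 and 11.47 in ST-HSC and 12.01, 12.12 and 12.14 in GMP, a difference of 0.47 ± 0.12 (adjusted p = 0.0326). Spi1, which encodes PU.1, read 8.03, 7.89 and 7.98 in ST-HSC and 7.95, 8.36 and 8.47 in GMP and overlapped, with a difference of 0.29 ± 0.19 (adjusted p = 0.334) and a 95% confidence interval from -0.12 to 0.70. Cebpb and Cebpd, related factors of later myeloid cells, differed by 0.43 ± 0.27 (adjusted p = 0.330) and 0.76 ± 0.31 (adjusted p = 0.135), and Gata2, a factor of stem cells, mast cells and basophils, differed by 0.95 ± 0.38 (adjusted p = 0.131). Runx1 and Klf4 differed by -0.15 ± 0.22 (adjusted p = 0.687) and -0.39 ± 0.30 (adjusted p = 0.420).

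Irf8, which directs monocyte and dendritic cell fate, fell from 11.13, 10.95 and 11.75 in ST-HSC to 8.98, 9.57 and 8.64 in GMP. No GMP array reached an ST-HSC array, and it dropped by 2.22 ± 0.40 (adjusted p = 0.00628). Id2 and Id3, which block E proteins, read 9.46, 9.35 and 10.56 in ST-HSC and 5.30, 5.25 and 8.05 in GMP for Id2 and 8.54, 8.25 and 9.08 in ST-HSC and 5.96, 6.31 and 6.51 in GMP for Id3, and differed by -3.59 ± 0.65 (adjusted p = 0.00639) and -2.36 ± 0.27 (adjusted p = 6.61e-04). GMP replicate 3 stood above the other GMP arrays for Id2. Gata3, a T-lineage factor, Bcl11a, a factor of lymphoid and dendritic progenitors, and Sox4, which is needed by B-cell progenitors, differed by -2.09 ± 0.30, -1.75 ± 0.32 and -1.53 ± 0.23 (adjusted p = 0.00219, 0.00618 and 0.00264). Cebpa and Id2 failed with only the 6 WT arrays fitted (adjusted p = 0.0598 and 0.0588). Gfi1 failed without ST-HSC replicate 2 or 3 or any 1 GMP array (0.0690 to 0.110), and Myb without any 1 of the 6 WT arrays (0.0503 to 0.103). Under the replicate block Gfi1 and Myb had adjusted p of 0.0670 and 0.0885, with the 6 arrays 0.0544 and 0.103, and without replicate 2 of both populations 0.187 and 0.115, and Myb had 0.0551 among probe sets that reached 6 in at least 3 WT arrays.

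The AP-1 family, the leucine zipper factors to which c-Jun belongs, had 0 of 16 measured genes higher and 3 lower in all 3 scalings, with a median difference of -0.33 as deposited, -0.0259 after the array median was subtracted and -0.0763 after quantile normalization. Among all genes the shares were 2.72% higher and 4.46% lower in all 3 scalings. Jun read 8.41, 9.53 and 7.61 in ST-HSC and 7.73, 9.46 and 7.99 in GMP, with replicate 2 highest in both populations, and differed by -0.13 ± 0.62 (adjusted p = 0.920). Its confidence interval reached from -1.50 to 1.25, so that a sizeable change in either direction lies within it. Bach2, a repressor of the myeloid program in lymphoid progenitors, Batf3, a dendritic cell factor, and Atf3, a stress-induced factor, differed by -2.15 ± 0.25, -1.21 ± 0.25 and -1.04 ± 0.13 (adjusted p = 7.60e-04, 0.0123 and 0.00111), and Batf3 did not pass with the 6 WT arrays alone (0.0784).

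**Figure D3:**
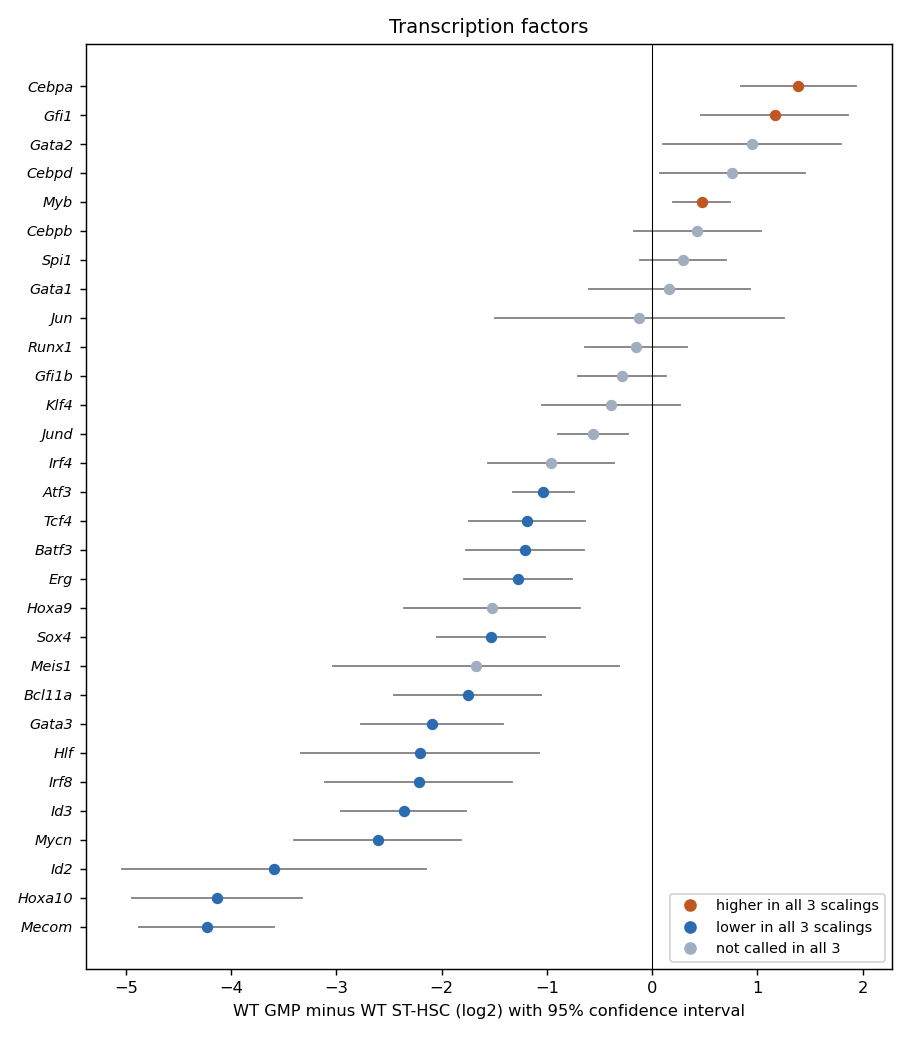
WT GMP minus WT ST-HSC difference of transcription factors on the log2 scale (points) with 95% confidence intervals of the limma fit that are not adjusted for the number of genes (lines). Cebpa, Gfi1 and Myb were higher in all 3 scalings, the intervals of Spi1, Runx1 and Jun include 0, and Mecom, Hoxa10 and Id2 fell furthest. The GMP values of Mecom and Hoxa10 lay near the low end of the arrays, so the sizes of their falls are uncertain.

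Receptors for hematopoietic cytokines fell more often than they rose. Of 28 measured, 1 was higher and 7 were lower in all 3 scalings (10 lower as deposited), beside 2.72% and 4.46% of all genes (10.8% lower as deposited). The median difference of the receptors was -0.61 as deposited and -0.30 after the array median was subtracted. The 1 that rose was Il5ra. Csf1r, the receptor for the macrophage growth factor M-CSF, read 11.55, 10.97 and 10.88 in ST-HSC and 10.53, 10.77 and 11.25 in GMP and overlapped, with a difference of -0.28 ± 0.83 (adjusted p = 0.862) and an interval from -2.13 to 1.57. The SE and interval use the spread within all 4 groups of the 12 arrays, KI included, which was wider than the spread of these WT values. Csf3r, the receptor for G-CSF, and Csf2ra and Csf2rb, the chains of the GM-CSF receptor, differed by 0.35 ± 0.29 (adjusted p = 0.460), 0.08 ± 0.54 (adjusted p = 0.941) and 0.57 ± 0.30 (adjusted p = 0.247). The receptor chains Il10ra, Il13ra1 and Il4ra differed by -2.79 ± 0.50, -2.39 ± 0.28 and -1.02 ± 0.16 (adjusted p = 0.00592, 8.06e-04 and 0.00350), and all of these passed in every limma refit.

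Stem cell genes fell as a group. Of 27 measured, 0 were higher and 15 were lower in all 3 scalings (18 as deposited, where 10.8% of all genes were lower), and the median difference was -1.68. Mecom, which encodes the stem cell factor Evi-1, read 6.61, 7.39 and 6.96 in ST-HSC and 2.35, 3.39 and 2.52 in GMP. The difference was -4.24 ± 0.29 (adjusted p = 4.51e-05), and its size is uncertain because the GMP values lay near the low end of the arrays. Procr, the endothelial protein C receptor that marks stem cells, read 8.72, 9.58 and 8.89 in ST-HSC and 5.35, 6.21 and 5.76 in GMP and differed by -3.29 ± 0.35 (adjusted p = 4.93e-04). Hlf, a leucine zipper factor of stem cells, read 10.59, 10.95 and 10.65 in ST-HSC and 7.89, 8.49 and 9.20 in GMP and differed by -2.20 ± 0.51 (adjusted p = 0.0196), its GMP arrays spread more widely than its ST-HSC arrays. Among homeobox genes, Hoxa10 fell from 6.06, 7.39 and 7.07 to 2.29, 2.87 and 2.97, a difference of -4.13 ± 0.36 (adjusted p = 1.90e-04). Hoxb3 fell by 2.44 ± 0.17 (adjusted p = 4.51e-05). Hoxa9 read 10.06, 10.22 and 10.04 in ST-HSC and 8.98, 7.51 and 9.26 in GMP and differed by -1.52 ± 0.38 (adjusted p = 0.0257), a call lost after the array median or 75th percentile was subtracted (adjusted p = 0.0632 and 0.0538).

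Meis1, a partner of Hox proteins, read 7.54, 6.98 and 6.66 in ST-HSC and 7.12, 4.64 and 4.39 in GMP, with GMP replicate 1 at the level of ST-HSC, and its difference of -1.68 ± 0.61 (adjusted p = 0.101) did not pass. Mycn and Mllt3, factors of stem cell self-renewal, differed by -2.61 ± 0.36 and -1.73 ± 0.21 (adjusted p = 0.00173 and 8.88e-04). Esam, Robo4 and Fgd5, surface and signalling proteins that stem cells share with endothelium, differed by -2.75 ± 0.29, -2.40 ± 0.31 and -2.33 ± 0.33 (adjusted p = 4.39e-04, 0.00123 and 0.00184), and Angpt1, a ligand of Tek, differed by -1.54 ± 0.22 (adjusted p = 0.00212). Of 10 endothelial markers, which include Tek of the stem cell list, 0 were higher and 2 were lower, Emcn and Tek, and their summed linear value was 641 to 1035 units in ST-HSC and 506 to 621 in GMP, and its part in these differences was not tested. Mecom, Procr, Hoxa10, Hoxb3, Mycn, Mllt3, Esam, Robo4, Fgd5 and Angpt1 passed in every limma refit. Hlf failed without ST-HSC replicate 2 or GMP replicate 1 or 2 (adjusted p = 0.0522 to 0.0661), Hoxa9 without any 1 ST-HSC array (0.0557 to 0.0670) and with the 6 WT arrays or the replicate block (0.105 and 0.0600), and Hlf, Hoxa9 and Tek failed without replicate 2 of both populations (0.0540 to 0.110).

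Several genes that mark the lymphoid-primed fraction of early progenitors fell too. Of 11 measured, 0 were higher and 5 were lower in all 3 scalings (7 as deposited), and the median difference was -1.45. Flt3, the receptor tyrosine kinase of lymphoid-primed progenitors, read 10.83, 10.28 and 10.47 in ST-HSC and 8.17, 5.88 and 5.77 in GMP. GMP replicate 1 kept a higher level than the other GMP arrays and stayed below every ST-HSC array, and the difference was -3.92 ± 0.51 (adjusted p = 0.00129). In its flow cytometry the paper gates ST-HSC as Flt3- or CD48- and multipotent progenitors as Flt3+ or CD48+. Transcripts of Flt3 and Cd48 were both high in the arrays titled ST-HSC. Whether multipotent or lymphoid-primed progenitors made up part of these sorts was not tested. Il7r, the interleukin 7 receptor, read 7.44, 7.90 and 7.36 in ST-HSC and 2.42, 4.58 and 2.55 in GMP and differed by -4.38 ± 0.69 (adjusted p = 0.00330). Rag1, the recombinase of antigen receptor genes, read 6.06, 8.62 and 7.84 in ST-HSC and 2.85, 2.78 and 2.76 in GMP and differed by -4.71 ± 0.48 (adjusted p = 4.09e-04), and Ccr9, a thymus homing receptor, read 6.35, 7.31 and 9.51 in ST-HSC and 2.81, 3.47 and 2.98 in GMP and differed by -4.63 ± 0.85 (adjusted p = 0.00683). Outside that list, Ighm, the immunoglobulin mu chain, read 9.07, 8.65 and 8.59 in ST-HSC and 5.13, 4.90 and 5.21 in GMP and differed by -3.69 ± 0.21 (adjusted p = 1.73e-05), and Trbv1, a T-cell receptor variable segment, read 8.85, 9.14 and 9.94 in ST-HSC and 4.40, 4.75 and 4.65 in GMP and differed by -4.71 ± 0.50 (adjusted p = 4.95e-04). Satb1, a chromatin organizer of lymphoid cells, fell by 0.96 ± 0.15 (adjusted p = 0.00301).

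Of 18 B-lymphoid genes 0 were higher and 4 were lower in all 3 scalings, with a median difference of -0.88, and of 20 T and NK genes 1 was higher and 3 were lower, with a median of -0.38. After the array median was subtracted the medians were -0.57 for the B-lymphoid and -0.0690 for the T and NK list, and after quantile normalization -0.62 and -0.11. Nkg7, a granule membrane protein of cytotoxic cells, was the 1 that rose, from 8.18, 8.61 and 8.20 to 9.68, 10.36 and 10.38, by 1.81 ± 0.22 (adjusted p = 8.47e-04). Klrd1, an NK receptor chain, differed by -3.0 ± 0.37 (adjusted p = 9.98e-04), and Foxo1, a factor of B-cell progenitors, by -1.51 ± 0.29 (adjusted p = 0.00915). Gimap8 and Gimap6, small GTPases of lymphocytes, read 8.74, 9.92 and 8.18 in ST-HSC and 2.57, 3.09 and 2.55 in GMP for Gimap8 and 11.58, 11.69 and 11.31 in ST-HSC and 7.21, 8.08 and 5.97 in GMP for Gimap6. Gimap8 differed by -6.21 ± 0.42 (adjusted p = 4.29e-05), and since all 3 of its GMP arrays lay under the lowest 25th percentile of the GMP arrays the size of its fall is uncertain. Gimap6 differed by -4.44 ± 0.43 (adjusted p = 3.17e-04). Lax1 and Rasgrp3, signalling proteins of lymphocytes, differed by -5.06 ± 0.24 and -4.85 ± 0.69 (adjusted p = 4.95e-06 and 0.00203). Flt3, Il7r, Rag1, Ccr9, Ighm, Trbv1, Satb1, Nkg7, Klrd1, Foxo1, Gimap8, Gimap6, Lax1 and Rasgrp3 passed in every limma refit.

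Antigen presentation genes were high in ST-HSC and lower in GMP. Of 10 genes of MHC class II presentation, 0 were higher and 8 were lower in all 3 scalings (9 as deposited), and the median difference was -2.82, the lowest of any list. H2-Ab1, a class II beta chain, read 12.17, 12.18 and 13.35 in ST-HSC and 6.88, 7.05 and 10.21 in GMP. Cd74, the invariant chain, read 10.97, 10.93 and 12.68 in ST-HSC and 5.19, 6.35 and 9.0 in GMP, and H2-Eb1, a further beta chain, read 10.72, 10.46 and 11.93 in ST-HSC and 5.02, 5.89 and 7.85 in GMP. In all of these replicate 3 was the highest array of both populations, and the groups did not overlap. The differences were -4.52 ± 0.81 (adjusted p = 0.00601) for H2-Ab1, -4.68 ± 0.80 (adjusted p = 0.00488) for Cd74 and -4.78 ± 0.64 (adjusted p = 0.00152) for H2-Eb1. H2-Ob and H2-DMa, which control peptide loading, differed by -3.44 ± 0.42 and -2.55 ± 0.36 (adjusted p = 8.96e-04 and 0.00190). The summed linear value of the list was 10821 to 26750 units in ST-HSC and 1004 to 2766 in GMP.

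Some markers of dendritic cells and of monocytes and macrophages were lower in the same arrays. Of 13 dendritic cell genes, 0 were higher and 6 were lower in all 3 scalings (9 as deposited), with a median difference of -1.19 and summed linear values of 9277 to 16731 units in ST-HSC and 5049 to 5747 in GMP. Itgax, CD11c, read 7.08, 6.86 and 8.83 in ST-HSC and 3.29, 3.41 and 3.70 in GMP, with ST-HSC replicate 3 highest, and differed by -4.12 ± 0.44 (adjusted p = 5.14e-04). Of 24 monocyte and macrophage genes, 1 was higher and 7 were lower in all 3 scalings, with a median difference of -0.47 (-0.17 after the array median was subtracted) and summed values of 18853 to 28850 units in ST-HSC and 14079 to 14977 in GMP. Ctss, cathepsin S, which trims the invariant chain, read 11.10, 10.04 and 11.35 in ST-HSC and 7.92, 6.35 and 8.49 in GMP and differed by -3.24 ± 0.51 (adjusted p = 0.00324). Mpeg1, a pore-forming protein of macrophages, read 10.85, 10.66 and 12.12 in ST-HSC and 8.45, 8.34 and 9.23 in GMP and differed by -2.54 ± 0.39 (adjusted p = 0.00307), and Fcgr1, the high-affinity IgG receptor, read 6.24, 5.69 and 6.13 in ST-HSC and 4.65, 3.99 and 4.40 in GMP and differed by -1.67 ± 0.21 (adjusted p = 0.00104). Fcer1g, the signalling chain that Fc receptors share, was the 1 that rose, by 0.94 (adjusted p = 0.00690). Whether cells of these types within the ST-HSC sorts contributed to the class II, dendritic cell and macrophage values was not tested.

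H2-Ab1, H2-Eb1, H2-Ob, H2-DMa, Itgax, Ctss, Mpeg1 and Fcgr1 passed in every limma refit. Cd74 failed with the 6 WT arrays alone (adjusted p = 0.0543) and Fcer1g without replicate 2 of both populations (0.0587). Of 12 hepatocyte markers, genes of the liver cells around the progenitors, 0 were higher and 1 was lower in all 3 scalings, beside 2.72% and 4.46% of all genes. The marker that fell was the factor Hnf4a at -2.14 ± 0.51 (adjusted p = 0.0215), which failed without ST-HSC replicate 3 or GMP replicate 1 or 2 (0.0598 to 0.0681), with the 6 WT arrays (0.0925) and without replicate 2 of both populations (0.0943). The summed linear value of the markers was 1158 to 1997 units in ST-HSC and 550 to 1253 in GMP.

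**Figure D4:**
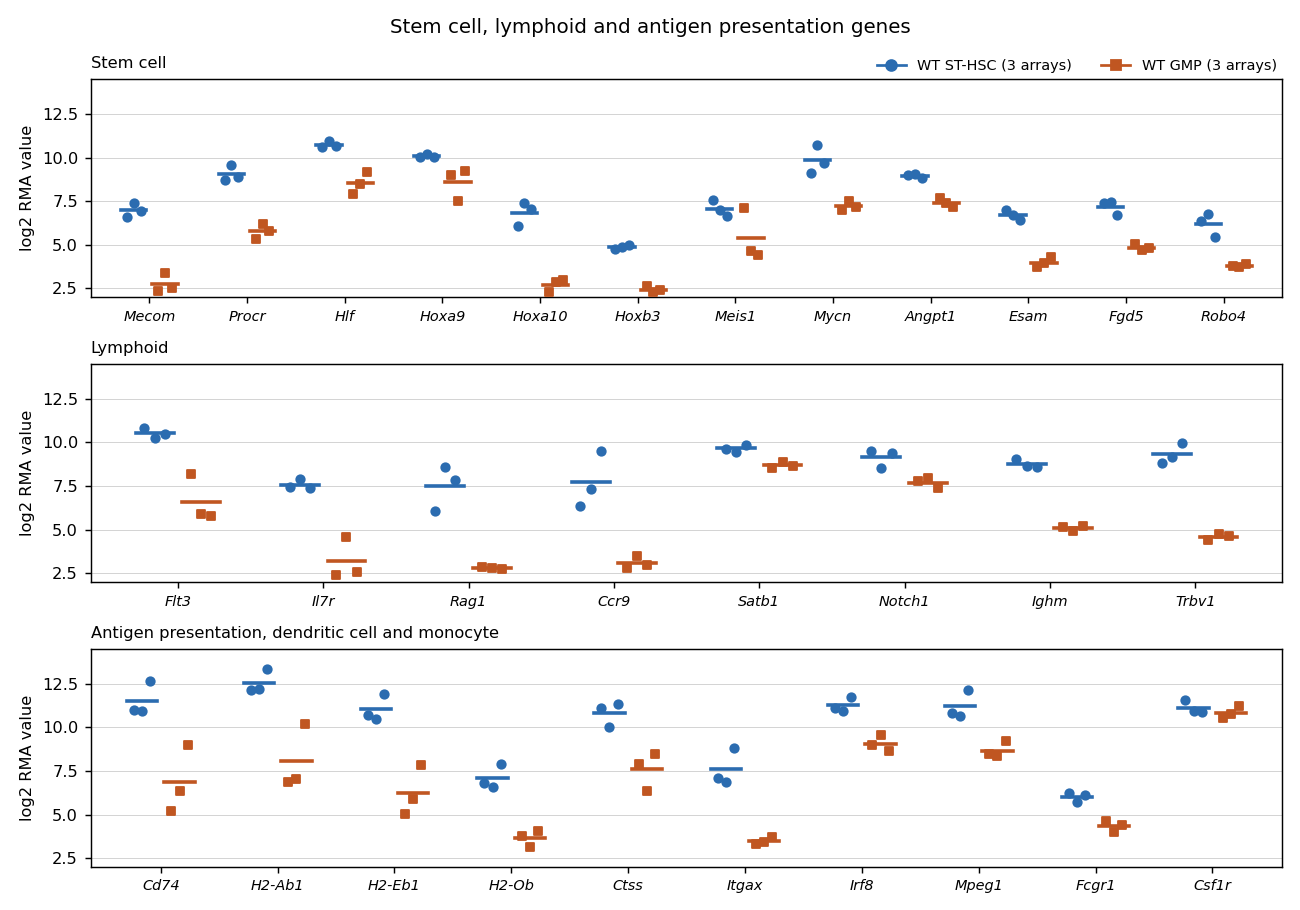
Log2 RMA values of stem cell, lymphoid, antigen presentation, dendritic cell and monocyte genes, 1 point per array in replicate order from left to right (circles WT ST-HSC, squares WT GMP, 3 arrays each) with bars at group means. Mecom, Rag1, Il7r and Itgax are far lower in GMP, GMP replicate 3 is highest of the GMP arrays for Cd74, H2-Ab1 and H2-Eb1, and Csf1r overlaps.

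Some genes induced by interferon and some sensors of pathogens were lower in GMP, while most members of both lists were not called. Of 19 interferon response genes, 0 were higher, 6 were lower in all 3 scalings (8 as deposited) and 11 were not called, with a median difference of -1.07. Ifit1, which binds foreign RNA, read 7.11, 7.97 and 8.27 in ST-HSC and 3.40, 3.48 and 3.36 in GMP and differed by -4.37 ± 0.62 (adjusted p = 0.00199). The size of the Ifit1 fall is uncertain because its GMP values lay near the low end of the arrays. Rsad2, the antiviral enzyme viperin, read 9.05, 7.49 and 9.50 in ST-HSC and 5.88, 4.25 and 6.06 in GMP and differed by -3.28 ± 0.54 (adjusted p = 0.00414), and Irf7, which amplifies the interferon response, fell by 1.68 ± 0.28 (adjusted p = 0.00423). Of 15 Toll-like receptors and sensors 0 were higher, 4 were lower in all 3 scalings and 10 were not called as deposited, with a median of -0.73. Tlr3, the receptor for double-stranded RNA, read 8.26, 9.38 and 11.06 in ST-HSC and 3.78, 4.33 and 6.22 in GMP, with replicate 3 highest in both populations, and differed by -4.79 ± 0.70 (adjusted p = 0.00239). Ly96, which pairs with Tlr4 to bind lipopolysaccharide, fell by 2.32 ± 0.43 (adjusted p = 0.00725). Tap1, a peptide transporter that loads MHC class I, fell by 1.49 ± 0.24 (adjusted p = 0.00357), the 1 of 10 class I genes that was lower in all 3 scalings. These named genes passed in every limma refit.

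Many genes for folding secretory proteins in the endoplasmic reticulum (ER) rose, by small amounts. Of 22 measured, 11 were higher and 0 were lower in all 3 scalings, and the median difference was 0.57, where all genes had -0.15. Calr, the chaperone calreticulin, read 12.16, 11.86 and 12.02 in ST-HSC and 12.71, 12.78 and 12.74 in GMP and differed by 0.73 ± 0.13 (adjusted p = 0.00531). Sdf2l1, a component of the ER chaperone complex, read 9.29, 9.19 and 9.43 in ST-HSC and 10.17, 10.59 and 10.83 in GMP and differed by 1.23 ± 0.19 (adjusted p = 0.00294). Hspa5, the chaperone BiP, read 11.85, 11.86 and 12.07 in ST-HSC and 12.45, 12.64 and 12.56 in GMP, without overlap, and differed by 0.62 ± 0.12 (adjusted p = 0.00770). Manf and Pdia6, a secreted ER stress protein and a disulfide isomerase, rose by 0.71 and 0.68 (adjusted p = 0.00943 and 0.0181). Calr and Sdf2l1 passed in every limma refit, Pdia6 failed without ST-HSC replicate 3 or GMP replicate 2 (adjusted p = 0.0596 and 0.0590), and with the 6 WT arrays Hspa5 and Pdia6 failed (0.0562 and 0.0526). Without replicate 2 of both populations Hspa5, Manf and Pdia6 failed (0.0676 to 0.0817), and under the replicate block Pdia6 did (0.0553).

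Alas1, the enzyme that starts heme synthesis in cells other than red cells, was the 1 of 9 heme synthesis genes that rose. It read 8.78, 9.06 and 7.97 in ST-HSC and 10.11, 10.09 and 10.52 in GMP and differed by 1.64 ± 0.31 (adjusted p = 0.00764), 3.11-fold. Of 16 glycolysis genes 2 were higher and 0 were lower in all 3 scalings, with a median difference of 0.12. Hk2, hexokinase 2, was the clearer, with 9.72, 9.70 and 9.70 in ST-HSC and 10.66, 10.90 and 10.86 in GMP and a difference of 1.10 ± 0.12 (adjusted p = 5.30e-04). Of 31 genes of the citric acid cycle and respiratory chain 0 were higher and 0 were lower in all 3 scalings, with a median of -0.01 as deposited and 0.30 after the array median was subtracted. None of 22 ribosome biogenesis genes and none of 6 NADPH oxidase genes passed as deposited, with medians of 0.12 and -0.11, the second of which turned to 0.19 after the array median was subtracted.

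Few cell cycle genes were called. Of 31 genes of the cell cycle and DNA replication 0 were higher and 1 was lower in all 3 scalings, with a median difference of -0.15, equal to that of all genes, and of -0.06 to 0.16 under the other scalings. E2f2, an activator of S-phase genes, was the 1 that was lower in all 3, from 8.25, 8.73 and 8.82 to 6.81, 6.45 and 6.81, a difference of -1.91 ± 0.28 (adjusted p = 0.00215). Of 18 D cyclins, their kinases and cell cycle inhibitors 0 were higher and 4 were lower in all 3 scalings. Cdkn1c, the inhibitor p57 of quiescent stem cells, read 6.91, 8.21 and 7.03 in ST-HSC and 4.37, 4.19 and 3.88 in GMP and differed by -3.24 ± 0.36 (adjusted p = 6.21e-04). Btg2, an antiproliferative gene, fell by 1.38 ± 0.24 (adjusted p = 0.00545). Cdkn1b, the inhibitor p27, differed by -0.89 ± 0.17 (adjusted p = 0.00734), a call lost after subtraction of the 75th percentile of each array (adjusted p = 0.0535), and Ccnd1, cyclin D1, by -1.61 ± 0.36 (adjusted p = 0.0161), a call lost without ST-HSC replicate 3 (0.0504) and with the 6 WT arrays (0.0805).

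Genes of the erythroid and megakaryocyte lineages, which GMP no longer form, were mostly not called. Of 20 erythroid genes 0 were higher and 2 were lower in all 3 scalings (5 lower as deposited), and of 19 megakaryocyte and platelet genes 0 were higher and 3 were lower. Over all genes 2.72% were higher and 4.46% lower in all 3 scalings, and 10.8% were lower as deposited. The medians of the erythroid and megakaryocyte lists were -0.25 and -0.29 and turned to 0.06 and 0.02 after the array median was subtracted. Car2, carbonic anhydrase 2, read 11.91, 11.65 and 12.01 in ST-HSC and 7.35, 8.89 and 9.11 in GMP and differed by -3.40 ± 0.41 (adjusted p = 8.76e-04). Plek and Gp9, a platelet kinase substrate and a platelet adhesion receptor chain, differed by -1.60 ± 0.23 and -1.24 ± 0.15 (adjusted p = 0.00199 and 9.07e-04). Gata1, the erythroid and megakaryocyte factor, read 5.95, 6.59 and 6.53 in ST-HSC and 5.88, 7.41 and 6.27 in GMP and differed by 0.16 ± 0.35 (adjusted p = 0.799).

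Known targets of PU.1 split by direction. Of 29 textbook targets 5 were higher and 5 were lower in all 3 scalings, beside 2.72% and 4.46% of all genes. As deposited 7 of the targets were lower, beside 10.8% of all genes. The median difference of the targets was -0.19, and it was 0.12 after the array median was subtracted. The higher ones were Elane, Prtn3, Mpo, Fcgr3 and Fcer1g. Fcgr3 encodes a receptor by which the GMP were sorted, so its rise is a check and not a finding. The lower ones were Il7r, Flt3, Ctss, Ly96 and Fcgr1. Csf1r, Csf2ra and Csf3r, receptors that PU.1 is known to activate, and Spi1 itself did not pass, with the values given above.

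**Figure D5:**
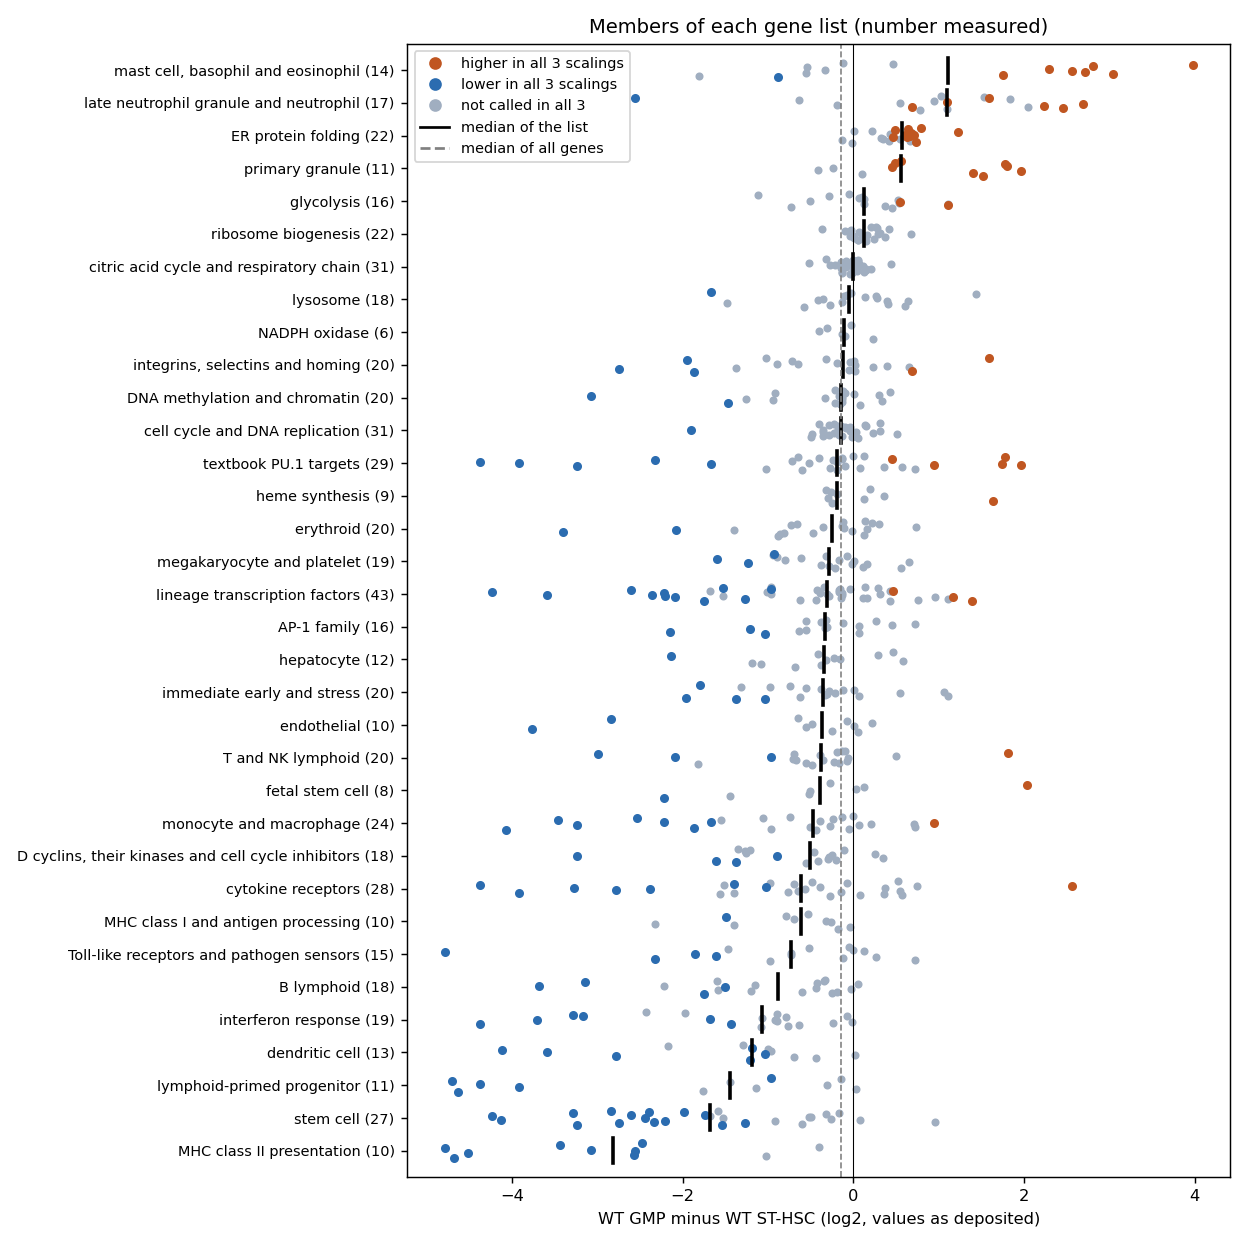
WT GMP minus WT ST-HSC difference of every measured member of 34 gene lists (points, log2, as deposited), coloured where the call held in all 3 scalings, with the median of each list (black bar) and of all genes (dashed line). Lists of granulocyte genes and ER protein folding lie to the right, and stem cell, lymphoid-primed and MHC class II lists to the left.

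Genes outside these lists filled many of the largest rises. Trem1, an activating receptor of neutrophils and monocytes, read 4.70, 4.88 and 3.53 in ST-HSC and 7.98, 7.53 and 8.50 in GMP and differed by 3.63 ± 0.33 (adjusted p = 2.26e-04), 12.4-fold. Prom1, the membrane protein CD133, read 7.10, 5.96 and 5.80 in ST-HSC and 9.91, 9.12 and 9.54 in GMP and differed by 3.24 ± 0.33 (adjusted p = 4.23e-04). Lin28a, an RNA-binding protein that blocks let-7 maturation, read 4.13, 5.13 and 4.14 in ST-HSC and 7.36, 7.60 and 8.96 in GMP and differed by 3.51 ± 0.42 (adjusted p = 8.37e-04). Papss2, which makes the sulfate donor, and Chst13, a chondroitin sulfotransferase that uses it, read 7.44, 7.45 and 5.12 in ST-HSC and 9.83, 10.63 and 9.83 in GMP for Papss2 and 7.31, 7.43 and 5.49 in ST-HSC and 9.06, 10.15 and 9.99 in GMP for Chst13, and rose by 3.42 and 2.99 (adjusted p = 0.00310 and 0.00290). In both the lowest array was ST-HSC replicate 3. Sgms2, a sphingomyelin synthase, and Apoc1, an apolipoprotein, rose by 3.16 and 2.89 (adjusted p = 4.51e-04 and 3.38e-04).

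Mgam, maltase-glucoamylase, had the highest mean difference of any gene, 4.15 ± 1.04 (adjusted p = 0.0263), on values of 8.50, 3.38 and 3.86 in ST-HSC and 9.57, 8.83 and 9.80 in GMP. ST-HSC replicate 1 lay nearest the GMP arrays, and the call failed without ST-HSC replicate 2 or 3 or GMP replicate 1 or 3 (adjusted p = 0.0696 to 0.0834), with the 6 WT arrays (0.123) and without replicate 2 of both populations (0.106). Trem1, Prom1, Lin28a, Papss2, Chst13, Sgms2 and Apoc1 passed in every limma refit. Of the 182 named genes that passed as deposited, 96 passed in every limma refit that held their probe set, 51 failed in at least 1 fit without 1 WT array and 69 failed with only the 6 WT arrays. SAM called 0 of the 55 named genes that were higher and 14 of the 127 that were lower.

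The same maturation step in KI cells was tested against that of WT cells as a difference of differences. Of 18193 genes, 5 (0.0275%) had a higher and 4 (0.022%) a lower KI than WT difference at an adjusted p under 0.05. None of the primary granule, stem cell, lymphoid-primed, MHC class II or mast cell, basophil and eosinophil lists had a member among them. For Elane the KI difference was 0.93 beside 1.96 in WT (adjusted p = 0.738 for their difference), for Mecom -4.79 beside -4.24 (0.808) and for Prg2 2.23 beside 3.98 (0.697). Il7r differed by 1.90 in KI and by -4.38 in WT cells, and Rag1 by -0.28 and -4.71, and the differences between KI and WT did not pass (adjusted p = 0.0760 and 0.0689). Ighm, of the B-lymphoid list, did differ, with -0.15 in KI beside -3.69 in WT (adjusted p = 0.00271). The paper lists Il7r and, under an older name, Ighm among genes lower in KI than in WT ST-HSC. Their KI differences therefore start from a lower level and do not show that the genes stayed on in GMP-like cells. GMP-like KI cells were sorted by the same gate in the sample records, and the paper gives an intermediate CD34 level for them. Xist was low in every KI array, at 3.57 to 3.78 in ST-HSC and 2.98 to 3.36 in GMP-like cells. In WT it was high in replicates 1 and 3 of both populations. Genotype therefore went in part with Xist, and its part in the KI minus WT differences was not tested.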

How the data were processed

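Per the labels, RNA of sorted cells was linearly amplified (Ovation Pico), labelled with biotin and hybridized to Affymetrix MG430 v2 arrays. The deposited values are log2 values that the authors obtained by RMA in R-Bioconductor, with the version not given in the sources used here. RMA removes background, aligns the arrays and summarizes probes. Array medians were close within each population (5.00 to 5.10 in the 6 ST-HSC arrays and 4.70 to 4.79 in the 6 GMP arrays), and 3 of 6 ST-HSC arrays and 5 of 6 GMP arrays had the same maximum, so the values may come from more than 1 normalization. Of 45101 probe sets, 64 AFFX controls were left out. The platform annotation gave 1 symbol to 34945 probe sets, several to 932 and none to 9160.

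The 12 arrays were fitted with 4 group means by limma 3.58.1 (R 4.3.3, lmFit and eBayes, 8 residual and 2.52 prior degrees of freedom), and p-values were adjusted by Benjamini-Hochberg across 45037 probe sets with no filter on low values. A call needed an adjusted p under 0.05. Each of 18193 genes took the probe set with the highest mean. Tables and figures used Python 3.11.15, pandas 2.3.3, numpy 2.4.6 and matplotlib 3.10.9. On simulated data of this comparison with 200 of 45037 probe sets changed, 45% were recovered at a log2 difference of 1 and 75% at 2, and 8 unchanged probe sets were called. The changed probe sets were drawn from those of lower spread, the noise was independent and normal, and no shift between populations was put in. These figures hold for that setting and not for the scale difference of the real arrays.

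Named genes were the 15 largest rises and 15 largest falls among genes called in all 3 scalings without overlap of arrays, for each list, at most 6 of its members, ranked by adjusted p, any member of the primary granule, stem cell, lineage transcription factor, cytokine receptor, sort marker and heme synthesis lists, Spi1, Jun, Csf1r and Xist, and, per direction, the top 5 genes by p of the KI minus WT difference. Members and lists were chosen with earlier results of these data known. Alternatives were other scalings, a filter on low values, the 6 WT arrays alone, the replicate number as a block, fits without 1 array, a trended robust fit, the methods' SAM procedure rewritten with 20 permutations, and a t-test with and without adjustment. Upstream sequences came from RefSeq on GRCm38.p6.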

Additional observations from a re-analysis of the deposited data

Results flagged for a closer look

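The GMP minus ST-HSC difference of 9 genes was not the same in KI and WT cells by the interaction term of the limma fit (adjusted p under 0.05), with the GMP-like cells standing for GMP in KI. The difference in KI exceeded that in WT by 3.54 for Ighm (-3.69 in WT and -0.15 in KI, adjusted p = 0.00271), by 3.71 for Ctnnd2 (-3.89 and -0.18, 0.00545) and by 3.03 for Gcsam (-4.45 and -1.42, 0.00629). It exceeded that in WT by 3.82 for Bmp4 (-0.89 and 2.93, 0.0130) and by 4.76 for Lgals3 (-3.46 and 1.30, 0.0192). In the other direction, KI minus WT was -3.29 for B4galt6 (1.06 in WT and -2.24 in KI, adjusted p = 0.0365) and -2.43 for Tuba8 (1.82 and -0.61, 0.0445). It was -1.88 for Tes (-0.67 and -2.54, 0.0365) and -1.54 for Cd320 (1.08 and -0.46, 0.0414). The paper lists Ighm and Gcsam, under older names, as lower in KI than in WT ST-HSC, so their KI differences start from a lower level. It also lists B4galt6 and Tes as lower in KI GMP-like cells than in WT GMP, so their values here take in a difference already reported. Xist was low in every KI array and high in most WT arrays, and its part in these differences was not tested. Groups of 3 arrays were not searched for single outlying arrays.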

How the results depend on the processing

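Over probe sets, 1098 were higher and 4809 lower in GMP (18.6% of the calls higher). Counts of higher and lower probe sets were 438 and 2103 with only the 6 WT arrays, 4009 and 1987 (66.9% higher) after the array median was subtracted, 2204 and 1926 (53.4%) after the 75th percentile was, 2764 and 2400 (53.5%) after quantile normalization, and 1337 and 2676 (33.3%) after the spike-in controls were subtracted. They were 410 and 1397 among probe sets that reached 6 in at least 3 WT arrays, 543 and 2581 without replicate 2 of both populations, 484 and 2424 past a log2 difference of 1 and 88 and 671 past 2. The methods' t-test gave 2335 and 8117 before and 83 and 520 after Benjamini-Hochberg adjustment, and with adjustment it called 2 of the 55 named genes that were higher and 16 of the 127 that were lower. SAM, set to allow 0 false calls in the median, called 0 probe sets higher and 149 lower, where limma on the same 6 WT arrays called 438 higher and the t-test 2335 before adjustment. Leaving out 1 WT array gave 661 to 860 higher and 3066 to 3755 lower. The cause of these shifts was not tested.

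With the replicate number as a block, 713 probe sets were higher and 3276 lower, and 28 of 182 called named genes failed. Deviations from the group means correlated between same-numbered arrays by 0.147, 0.165 and 0.0618, and every array correlated best with its own number, a hint from the data and not from the design, and the design was treated as unpaired.

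For the KI minus WT difference, 9 probe sets were higher and 13 lower, with 8 lower after the array median was subtracted and 5 lower under the replicate block, and leaving out 1 array gave 4 to 36 higher and 2 to 24 lower. After the array median was subtracted, the median difference was 0.86 for primary granule, -1.14 for lymphoid-primed, 0.0175 for megakaryocyte, 0.16 for cell cycle, 0.43 for ribosome biogenesis, 0.30 for citric acid cycle, 0.88 for ER folding, 0.19 for NADPH oxidase and 0.26 for lysosome genes. It was -0.0345 for megakaryocyte genes after quantile normalization and 1.68 for late neutrophil genes among probe sets that reached 6. With a gene's probe sets averaged it was -1.76 for lymphoid-primed and 0.41 for ER folding genes. Leaving out 1 WT array moved the lymphoid-primed median between -1.76 and -1.29, the former without ST-HSC replicate 2. With 3 arrays a group, their number limits the precision.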
